A study of Mus musculus with 4 samples.

Results

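The AP-1 and Egr immediate early factors are 10 genes of the array, namely Fos, Fosb, Fosl1, Fosl2, Jun, Junb, Jund, Atf3, Egr1 and Egr2. They were taken by gene symbol from 22305 named genes, with the brightest probe set standing for a gene, and each of the 10 had 1 probe set. The study asked what chondrocytes do without Polycomb repressive complex 2 (PRC2), which methylates histone H3 and so silences genes, and measured RNA of primary rib chondrocytes on 4 arrays. The wild-type (Wt) group held 2 arrays and the Eed cKO group held 2. The Eed cKO pups carried Col2-Cre, a Cre recombinase under a Col2a1 promoter, with floxed Eed, the gene of a core PRC2 subunit. All pups were newborn (0.5 days old) on a mixed C57BL/6 and 129Sv background, and every culture was kept overnight in medium containing 10% fetal calf serum with no treatment. Deletion was limited to cells in which the Col2a1 promoter had been active, the labels do not give the number of pups behind an array, and neither the labels nor the methods say whether Wt pups carried Cre.

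AP-1 is a family of dimeric transcription factors whose subunits hold each other through a leucine zipper and grip DNA with a basic region. Fos proteins need a Jun partner, whereas Jun proteins and Atf3 can also pair with themselves. Egr1 and Egr2 are zinc finger factors that bind GC-rich sites. Most of these genes are immediate early genes, transcribed within minutes of serum, growth factors or stress without new protein synthesis, and Fos then falls back quickly while Fosl1 and Fosl2 stay up for longer. In the skeleton, Fos proteins are known for their part in bone cell formation and, when overproduced in mice, for tumours of bone and cartilage.

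Short stretches of promoter show the DNA elements through which such genes are known to answer stimuli. Of the 10 genes, 8 had an entry in the RefSeq promoter table (build GRCm38.p6), with 12 entries between them. Fosl1 and Egr1 had none. The 250 bases before each listed start were searched on both strands for TGANTCA (the AP-1 site), TGACGTCA, TTACGTCA and TGACG (the cAMP response element, a variant and its core), TGACATCA (the AP-1-like site known from Jun), the CArG box of serum response factor, and GCGTGGGCG and GCGGGGGCG (Egr sites). TTACGTCA contains the core TGACG on the other strand. The 4 stretches below run 5′ to 3′ on the gene's strand, and capitals mark the element named in the brackets. The Egr2 stretch also holds the core TGACG, on the other strand and in lower case. Atf3 is shown because it had the largest difference of the 10, and Jun, Fos and Egr2 because their elements are textbook examples and their RNA did not pass the test.
Atf3 (chr1:191183334-191183393, minus strand, TTACGTCA): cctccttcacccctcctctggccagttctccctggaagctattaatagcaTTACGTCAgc
Jun (chr4:95052243-95052282, minus strand, TGACATCA): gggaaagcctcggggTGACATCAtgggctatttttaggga
Fos (chr12:85473810-85473849, plus strand, TGACG): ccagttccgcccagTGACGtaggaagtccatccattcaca
Egr2 (chr10:67537794-67537823, plus strand, CArG box): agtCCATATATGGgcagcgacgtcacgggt

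Counted from the listed start, the Atf3 element lay at bases -10 to -3, the Jun element at -45 to -38 and the nearer of the Fos cores at -66 to -62. Among all 32851 promoter entries, 0.447% held TTACGTCA, 2.93% TGACATCA, 17.8% TGACG and 1.47% a CArG box. The core TGACG was also in Fosb, Junb and Egr2, and GCGGGGGCG, held by 2.57% of all entries, was in Fosb and Fosl2. TGANTCA, TGACGTCA and GCGTGGGCG were found in no entry of these genes, and a CArG box in Egr2 alone. A match of letters is a description and not a bound site.

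Eed was lower in both Eed cKO arrays, with signals of 1057 and 990.3 against 3597 and 3530.4 in Wt (log2 difference -1.77, limma adjusted p = 7.59e-05). Which exons the probe set covers was not known, so the remaining signal does not measure how complete the deletion was. The array medians were 830.4 to 837. Signals are linear intensities, and differences are Eed cKO minus Wt on log2(signal + 32) with the standard error (SE) of a limma fit over 14944 genes. A gene was called where its Benjamini-Hochberg adjusted p was under 0.05. Xist, which marks female cells, reached 17819.7 in Wt 1 and 17196 in Eed cKO 2 but 3634 in Wt 2 and 4845 in Eed cKO 1, so it did not follow genotype. By the adjusted p, 9.63% of all tested genes rose and 5.98% fell. Of the 8 chondrocyte markers Matn1 rose, Acan fell and 6 did not pass. The summed signal of the 8 was 205578 to 209388 in Wt and 202897 to 205883 in Eed cKO cells. Some genes listed as markers of other cells moved with genotype. Bulk RNA does not show whether other cells or the chondrocytes themselves made that RNA. The part of other cells in the results was not tested. Of 4 tested osteoblast markers 3 rose (summed signal 8084 to 9539 in Wt, 18251 to 23225 in Eed cKO), of 8 fibroblast and perichondrium markers 5 rose and 1 fell (63610.3 to 67166, and 73222 to 77549), and of 6 muscle markers 3 rose and 1 fell (6264 to 7009, and 7603 to 8309.8). Macrophage markers (9251 to 9423, and 8881 to 9883), endothelial markers (6813 to 6855, and 7015 to 7461) and red cell markers (10625 to 11562, and 9792 to 10555) had 1 that fell in each list and 1 endothelial marker that rose. The summed signals take in all listed markers on the array, also those too dim for the test. No marker was at 0, since an array gives a background signal for every probe set.

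Fosl1 and Egr1 rose in Eed cKO chondrocytes, Atf3 and Jund fell, and Fos, Fosb, Fosl2, Jun, Junb and Egr2 did not pass the test. All 10 genes passed the filter on dim genes. The calls thus numbered 4 of 10, against 15.6% of all tested genes (9.63% rose and 5.98% fell). The median log2 difference of the 10 was 0.06 and the median of its size 0.16, against 0.00 and 0.10 over all tested genes. Both Eed cKO arrays lay above both Wt arrays for 4 of the 10 (31.1% of all tested genes) and below them for 2 (29.1%), so 6 in all had no overlap, against 60.2% of all genes, and a lack of overlap says little with 2 arrays a group. At an unadjusted p under 0.05, 5 of the 10 passed, against 30.5% of all genes. In bulk RNA a lower signal from fewer expressing cells and one from less RNA per cell cannot be told apart.

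**Figure D1:**
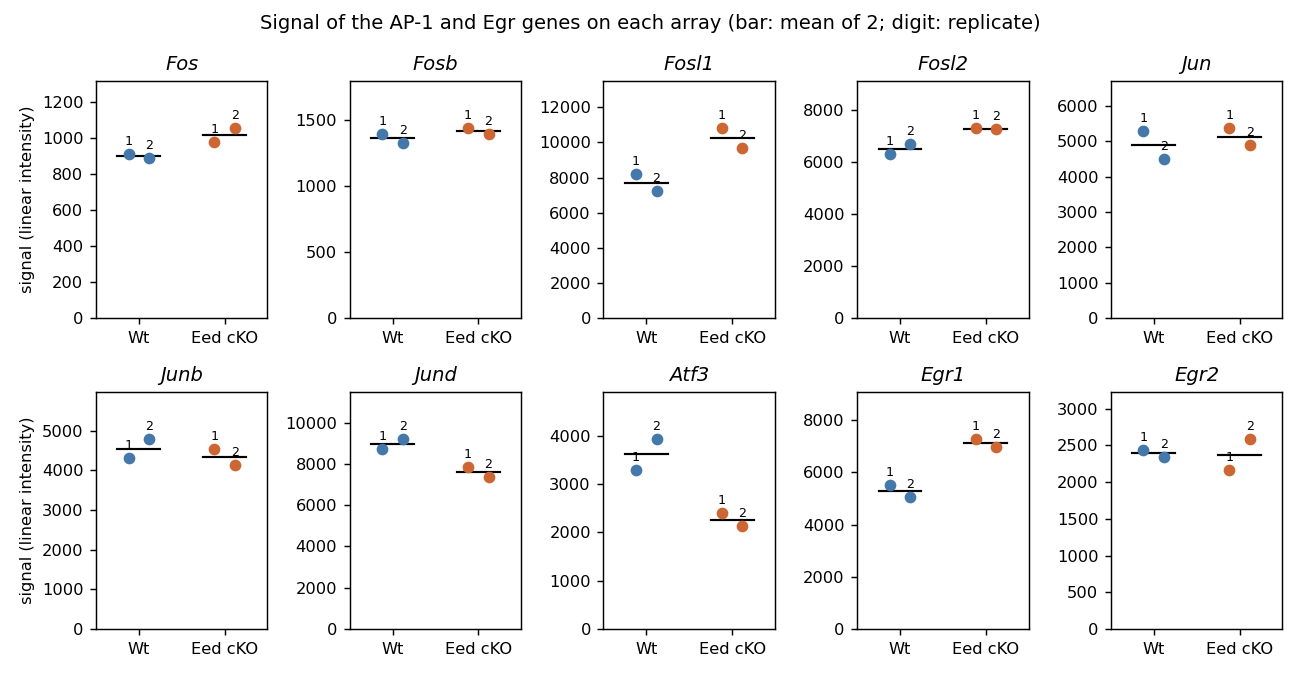
Signal (linear intensity, axes from 0) of each of the 10 genes on the 4 arrays, with blue points for Wt, orange points for Eed cKO, digits for the replicate number and a bar for the mean of 2 arrays. The groups stand apart for Fosl1, Egr1, Atf3 and Jund, and more narrowly for Fos and Fosl2, while those of Fosb, Jun, Junb and Egr2 overlap.

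In the Fos family, which supplies the partners of Jun, Fosl1 alone passed the test. The means of Fos, Fosb and Fosl2 were also higher in Eed cKO cells, but the intervals of Fos and Fosb reached across 0. Over all tested genes the median log2 difference was 0.00, so a higher mean by itself is common. Fosl1 encodes Fra-1, a late-phase Fos protein without the strong activation domain of Fos, and it is known to promote bone matrix production in mice. Its signal was 8206 in Wt 1 and 7233 in Wt 2, and 10796 in Eed cKO 1 and 9680.1 in Eed cKO 2. Both Eed cKO arrays thus lay above both Wt arrays, and the array of replicate 1 was the higher in each group. The means were 7719 ± 688 and 10238 ± 789 (SD, n = 2 arrays, as for all means here), a ratio of 1.33 and a log2 difference of 0.41 (SE 0.08, 95% confidence interval 0.23 to 0.59, limma adjusted p = 0.0140). The spread between replicates was 2.55 times the usual SD of genes of that brightness, the largest such ratio of the 10.

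Fosl2, which encodes Fra-2 and takes part in cartilage and bone growth in mice, had signals of 6282 and 6700.0 in Wt and 7278 and 7259 in Eed cKO cells. The Eed cKO arrays were nearly equal and above both Wt arrays. The log2 difference of 0.16 (SE 0.05, interval 0.04 to 0.28) had an unadjusted p of 0.0145 and did not pass after adjustment (limma adjusted p = 0.0748). The difference kept its sign with any array left out, from 0.12 to 0.21.

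Fos, the founding member and the shortest-lived of the family, was dim, at 915 and 889 in Wt and 978 and 1055 in the Eed cKO group. Its groups did not overlap, but the gap between them was small (log2 difference 0.17, SE 0.08, interval -0.02 to 0.36, limma adjusted p = 0.215). Its mean signal lay above that of 44.9% of named genes, not far over the filter at a signal of 626, where the array separates signal from background least. Fosb, which nerve and bone cells also make in a short form known as delta-FosB, read 1394 and 1329 in Wt and 1437 and 1394 in Eed cKO cells. These signals overlapped, and the interval of the log2 difference ran from -0.12 to 0.23 (limma adjusted p = 0.667). A single probe set cannot separate the Fosb forms.

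The Jun family supplies the obligate partners of Fos. Jund, the member that resting cells hold at a steady level and that slows growth of fibroblasts, fell. Its signals were 8742 and 9197 in Wt and 7841 and 7354 in Eed cKO cells, with no overlap. The means were 8970 ± 322 and 7597 ± 345, a ratio of 0.847 and a log2 difference of -0.24 (SE 0.05, interval -0.36 to -0.12, limma adjusted p = 0.0238). This call was lost without Wt 2 (0.125), without Eed cKO 2 (0.0526) and without the intensity trend in the variance (0.0704).

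Jun, whose product drives cell cycle entry, read 5304 and 4506 in Wt and 5366 and 4904 in Eed cKO cells. The replicates differed more than the genotypes, and replicate 1 was the higher in both groups. The log2 difference was 0.07 (SE 0.09, interval -0.14 to 0.28, limma adjusted p = 0.647). Junb, often a brake on Jun and needed for bone formation in mice, read 4303 and 4788 in Wt and 4549 and 4144 in Eed cKO cells, and these ranges overlapped as well. Its log2 difference was -0.06 (SE 0.07, interval -0.24 to 0.11, limma adjusted p = 0.621). The intervals of Jun and Junb held values on both sides of 0.

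Atf3 had the largest difference of the 10 genes. It encodes a basic leucine zipper protein that stress of many kinds induces and that represses transcription as a homodimer. Its signal was 3297 and 3929 in Wt and 2391 and 2128 in Eed cKO cells, so every Eed cKO array lay well below both Wt arrays. The means were 3613 ± 447 and 2259 ± 185, a ratio of 0.625 and a log2 difference of -0.67 (SE 0.10, interval -0.90 to -0.43, limma adjusted p = 0.00644). Of all tested genes, 2.94% had a larger difference in either direction. The difference stayed between -0.79 and -0.54 and passed with each array left out in turn. The element TTACGTCA printed above is in the promoter of this gene.

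The zinc finger genes did not move alike. Egr1, which couples growth factor and mechanical signals to transcription, had signals of 5534 and 5058 in Wt and 7278 and 6960.1 in Eed cKO cells, with a clear gap between the groups. The means were 5296 ± 336 and 7119 ± 225, a ratio of 1.34 and a log2 difference of 0.43 (SE 0.06, interval 0.28 to 0.57, limma adjusted p = 0.00499). Egr2, known for its role in hindbrain patterning and in myelin and also present in bone cells, read 2444 and 2348 in Wt and 2167 and 2586 in Eed cKO cells. The Eed cKO arrays lay on either side of the Wt arrays. Its log2 difference was -0.02 (SE 0.09, interval -0.24 to 0.20, limma adjusted p = 0.921). The difference between Egr1 and Egr2 was not tested.

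**Figure D2:**
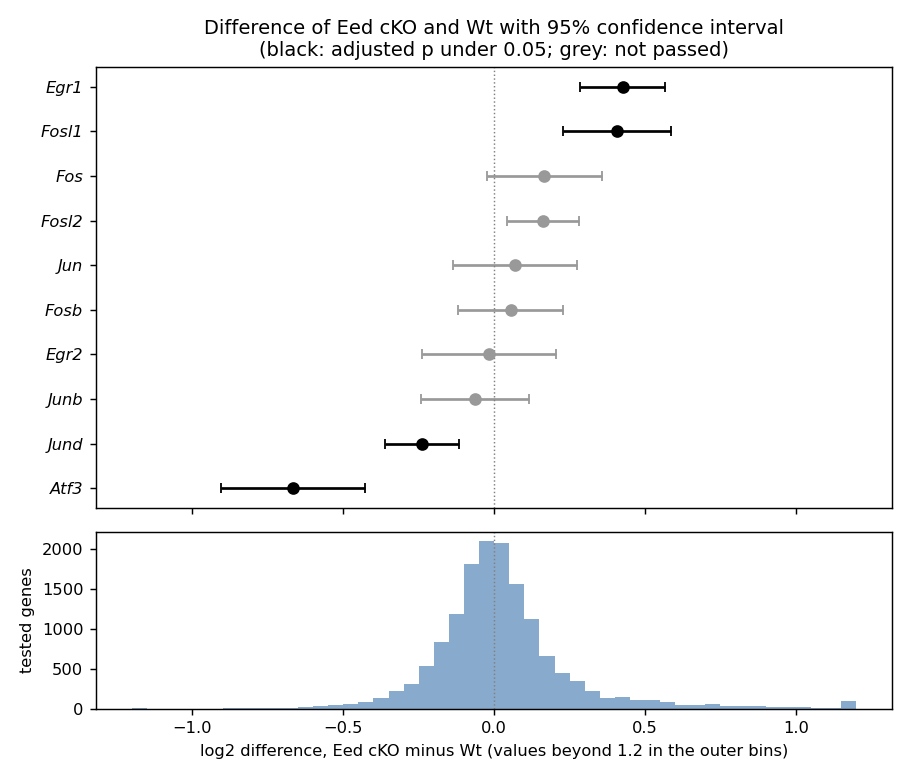
Upper panel, log2 difference of Eed cKO minus Wt for the 10 genes with the 95% confidence interval of the limma fit, black where the adjusted p was under 0.05 and grey otherwise. Lower panel, the number of tested genes at each log2 difference. Of the 10, Egr1 (0.43) and Fosl1 (0.41) lie furthest to the right and Atf3 (-0.67) and Jund (-0.24) furthest to the left. A larger difference in either direction was seen in 7.15% of tested genes for Egr1, 7.72% for Fosl1, 2.94% for Atf3 and 18.5% for Jund.

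By the fold rule of the study, a ratio of means over 1 by more than 25%, Fosl1 and Egr1 were higher (7.99% of all tested genes). Of the 10, Atf3 alone was lower by the same factor (3.88% of tested genes), since the fall of Jund was smaller. The calls of Fosl1, Egr1 and Atf3 held with each array left out, with adjusted p from 0.00118 to 0.0289 for Fosl1, from 0.00155 to 0.0106 for Egr1 and from 0.000775 to 0.0132 for Atf3. With a term for the arrays of high Xist signal, chosen after seeing the data, the adjusted p was 0.0298 for Fosl1, 0.0119 for Egr1, 0.00417 for Atf3 and 0.0213 for Jund. The methods' t-test, with an unadjusted p under 0.05 as its threshold, called Egr1 and Atf3 and neither Fosl1 nor Jund, and after Benjamini-Hochberg it called none of the 10.

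**Figure D3:**
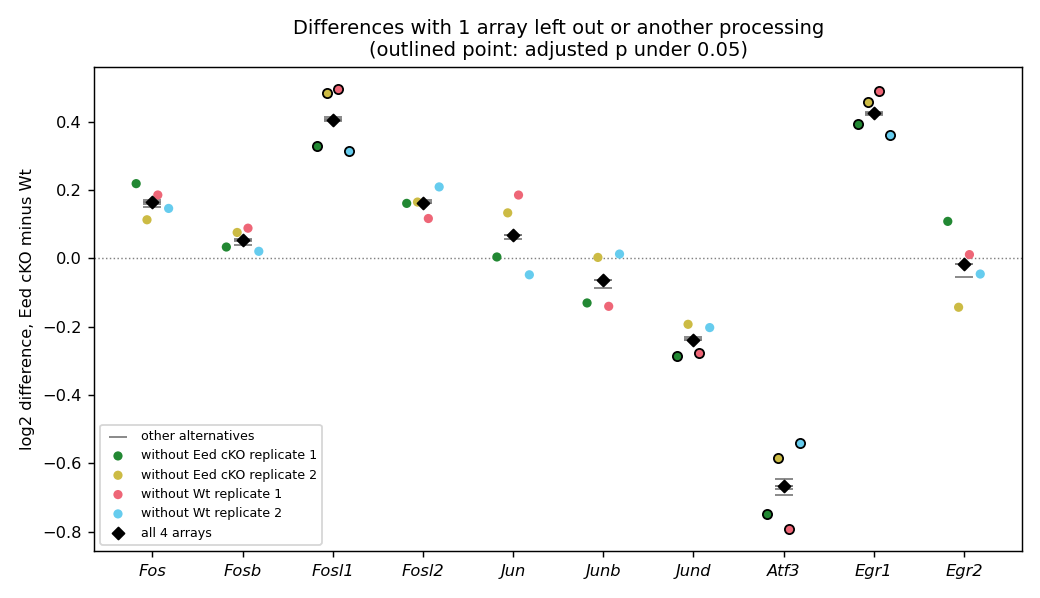
Log2 difference of Eed cKO minus Wt for each of the 10 genes with all 4 arrays (black diamonds), with 1 array left out (coloured points, outlined where the adjusted p was under 0.05) and with other processing (grey dashes). Fosl1, Egr1 and Atf3 stay on their side with outlined points throughout, Jund loses the outline without Wt 2 and without Eed cKO 2, and Jun, Junb and Egr2 cross 0.

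The genes with the profile most like that of Atf3 over the 4 arrays were Shld1, Stkld1 and Gm4795, at root mean square distances of 0.033, 0.049 and 0.051 on the centred log2 scale. All 3 fell in Eed cKO cells and, like Atf3, were higher in Wt 2 than in Wt 1. Within a distance of 0.1 there were 33 of 14943 other genes, which with 4 arrays is a description alone.

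Other immediate early genes went in both directions. The test called 7 of 35 higher and 3 lower, against 9.63% and 5.98% of all tested genes. The median log2 difference of the 35 was 0.08. Among the Nr4a orphan nuclear receptor genes, Nr4a3 and Nr4a1 rose. Nr4a2, whose groups overlapped, did not pass (log2 difference 0.42, limma adjusted p = 0.219). Nr4a3 went from 665 and 663 in Wt to 1246 and 1492 in Eed cKO arrays (log2 difference 1.00, SE 0.10, limma adjusted p = 0.00138), and Nr4a1 rose by 0.60 (0.0018). Phlda1, an early gene of growth factor signalling, rose by 0.62 (0.00223), and Klf10, Btg2, Errfi1 and Vcl made up the rest. Of these, Klf10 was not called without Wt 1 (0.137) or Wt 2 (0.0974), nor Btg2 without Wt 1 (0.131), Wt 2 (0.0565) or Eed cKO 1 (0.0751). Gadd45b, a stress gene that binds kinases upstream of p38 and JNK, fell from 10324 and 10547 in Wt to 7867 and 6811 in Eed cKO cells, by 0.51 (0.00426). Ier3, a survival factor, fell by 0.33 (0.0202) and Klf4, a zinc finger factor, by 0.20 (0.0467). Leaving out Wt 2 undid the Ier3 call (0.133), and leaving out Wt 1 (0.121), Wt 2 (0.227) or Eed cKO 2 (0.1001) undid that of Klf4.

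Among 15 tested basic leucine zipper partners of AP-1, 2 rose, 2 fell and 11 did not pass (median 0.06). Calls in either direction made up 15.6% of all tested genes. Maf rose, from 3687 and 4062 in Wt to 7036 and 6699 in Eed cKO arrays (log2 difference 0.82, SE 0.06, limma adjusted p = 0.000564). It takes part in the terminal differentiation of chondrocytes in mice. Atf4 and Ddit3, factors of the integrated stress response, the first of which is known to induce Atf3, fell by 0.17 (0.0190) and 0.35 (0.0250). With Wt 2 left out neither Atf4 (0.126) nor Ddit3 (0.107) passed, and with Eed cKO 2 left out Ddit3 did not (0.0505).

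Upstream of the immediate early genes, 30 of 33 kinases and factors tested did not pass (median 0.03). The 2 that rose and 1 that fell stand beside 9.63% and 5.98% of all tested genes. Map2k1, a kinase that activates ERK, fell from 4924 and 5058 in Wt to 3944 and 3989 in Eed cKO arrays (log2 difference -0.33, SE 0.05, limma adjusted p = 0.00809). Map2k2, which also activates ERK, did not pass (log2 difference 0.03, limma adjusted p = 0.807). Mapk11, a p38 kinase, rose by 0.38 (0.0167) and Map2k3, which activates p38, by 0.21 (0.0391). The Map2k1 call was lost without Wt 2 (0.0534), the Mapk11 call without Wt 1 (0.104) or Wt 2 (0.0793), and the Map2k3 call without Wt 1 (0.106), Wt 2 (0.145) or Eed cKO 1 (0.0829). These are RNA values and hold no measure of kinase activity.

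Of 23 tested genes known as AP-1 targets, 8 rose, 3 fell and 12 did not pass (median 0.13). Over all tested genes 9.63% rose and 5.98% fell. Besides the cyclin gene Ccnd1 (log2 difference 1.24), the urokinase gene Plau rose from 721 and 659 in Wt to 1172 and 1233 in Eed cKO cells (0.78, SE 0.08, limma adjusted p = 0.00186). Among the others that rose were Mmp9, Mmp13, Plaur, Cd44 and Krt18, of which Mmp13 was not called with robust variance (0.163), Cd44 without Wt 1 (0.0547) or Wt 2 (0.0502), nor Krt18 without Wt 2 (0.0529). Mmp3, which encodes the matrix protease stromelysin, went the other way, from 8640.0 and 8477 to 5311 and 4572 (-0.79, SE 0.07, limma adjusted p = 0.00106). Hmox1, a heme-degrading enzyme of the stress response, fell by 0.31 (0.0294) and the protease inhibitor gene Timp1 by 0.14 (0.0103). With Wt 2 left out neither Hmox1 (0.111) nor Timp1 (0.0513) passed, and with Eed cKO 2 left out Hmox1 did not (0.0674).

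Egr proteins are held in check by the corepressors Nab1 and Nab2, which Egr factors induce in turn. Nab2 rose, from 7985 and 7879.6 in Wt to 9356 and 9432 in Eed cKO arrays (log2 difference 0.24, SE 0.04, limma adjusted p = 0.00935), while Nab1 had a difference of 0.24 (0.0658). Of 11 corepressors and Egr targets, 4 rose, 3 fell and 4 did not pass (median 0.14), with 15.6% of all tested genes called. The adhesion gene Icam1 rose by 0.56 (0.00439) and Tgfb1 by 0.34 (0.00603). The angiogenic factor gene Vegfa, tissue factor gene F3 and fibronectin gene Fn1 fell by 0.47 (0.00141), 0.33 (0.0141) and 0.09 (0.0352). The F3 call was lost without Wt 1 (0.0514). Fn1 passed with Eed cKO 1 left out (0.0423) and not otherwise (0.0823 to 0.189).

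Heat shock genes, which along with Fos, Jun and Egr1 answer the enzymes used to free cells from tissue, were read as values beside the result. Of 14 tested, 3 rose, none fell and 11 did not pass (median 0.03, summed signal 152749 to 158510.1 in Wt and 163875 to 164511 in Eed cKO cells). The share called over all tested genes was 15.6%. The small heat shock genes Hspb1 and Hspb8 rose by 0.59 (limma adjusted p = 0.000449) and 0.62 (0.00189), and Dnaja1 by 0.15 (0.0435), a call lost with any array left out (0.0636 to 0.267). The inducible chaperone genes Hspa1a and Hspa1b had differences of -0.11 (0.384) and -0.23 (0.129). The part of cell isolation in the result was not tested.

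**Figure D4:**
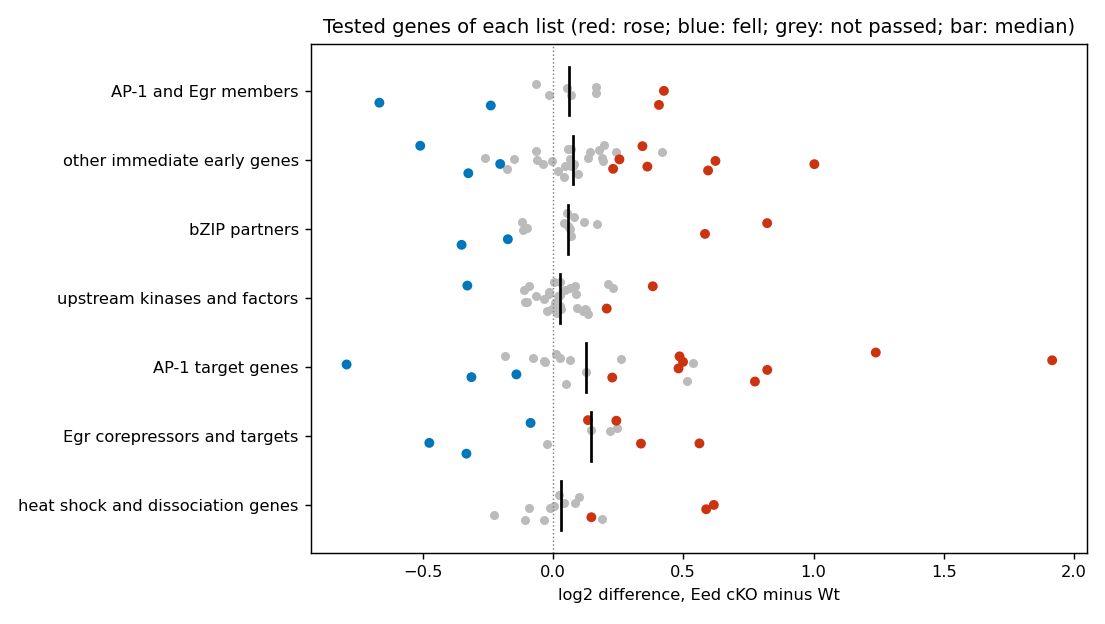
Log2 difference of Eed cKO minus Wt for every tested gene of the AP-1 and Egr members and of 6 related lists, red for genes that rose, blue for genes that fell, grey for genes that did not pass, with a bar at each list's median. Each list but that of heat shock genes holds genes that rose and genes that fell, and the medians lie between 0.03 and 0.14.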

How the data were processed

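RNA of 4 rib chondrocyte cultures was measured on Affymetrix Mouse Gene ST 1.0 arrays. The deposited values are linear intensities, which the authors summarised to 1 value per array for 35512 probe sets. A supplementary sheet is named for dChip. How background was corrected and arrays were normalized, and with which annotation, was not given in the sources used here. A second deposited table held equal intensities. The deposited ratio columns, the authors' fold changes of Eed cKO to control, were not used.

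Symbols were updated through RefSeq (GRCm38.p6) by accession for 18664 probe sets, by symbol for 2420 and by older name for 1957; 2134 kept the file's name and 10337 had none. Values were taken as log2(intensity + 32). Genes under the 33rd percentile of mean signal, 626, were left out, which kept 14944 of 22305. Tests used limma 3.58.1 in R 4.3.3 (lmFit, eBayes with trend) with group alone. The code was run on simulated data drawn from the fit's own variance model. Such data cannot show whether that model holds for these genes. Degrees of freedom were 6.91 with the shared variance. The limma p-values rest on the spread between 4 samples, drawn toward the usual variance of genes of like brightness. The design text calls these samples biological duplicates without naming the pups, and the number of arrays limits precision. The paper states that its control and cKO mice were littermates. The labels name no litters, so litter could not enter the fit. An exact permutation test of 2 against 2 cannot go below 0.333. Groups and replicate numbers came from sample titles.

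Members and lists were chosen with earlier results of these data known. Named genes were all members, Eed, of each list the 3 with the smallest p among those called in each direction (all where 5 or fewer), and the 3 nearest profiles. Some genes that this rule names are counted in their lists and not reported here by name. Other names within lists were chosen after their values were seen. Alternatives were other pseudocounts, filters, normalization, variance models, the methods' t-test, averaged probe sets, a replicate block and leaving out each array.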

Additional observations from a re-analysis of the deposited data

How the results depend on the processing

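With 1 array left out, 928 to 1562 genes rose and 385 to 1170 fell, against 1439 and 894 with all arrays. Of the 10 AP-1 and Egr genes, 2 rose each time and 1 to 2 fell, and the differences ran from -0.05 to 0.19 for Jun, from -0.14 to 0.01 for Junb and from -0.14 to 0.11 for Egr2. The sign turned without Wt 2 for Jun (-0.048) and Junb (0.013), without Eed cKO 2 for Junb (0.0031), and without Eed cKO 1 (0.11) and Wt 1 (0.011) for Egr2. In the lists, the genes that fell numbered 1 to 5 of the immediate early genes, 0 to 2 of the basic leucine zipper partners, 0 to 1 of the kinases, 1 to 3 of the AP-1 targets, 1 to 3 of the Egr targets and 0 to 1 of the heat shock genes, and 0 to 2 kinases rose. Such a fit takes the lone array of a group to vary like the other group. Without the intensity trend 574 genes fell in all, as did 1 of the 10, 0 partners and 1 AP-1 target, while 1 partner and 1 kinase rose. Without the trend Jund, Atf4, Btg2, Cd44, Ddit3, Dnaja1, Errfi1, Fn1, Hmox1, Klf4, Map2k3 and Timp1 were not called (adjusted p from 0.0524 to 0.330). With the Xist term, added after seeing the data, 1 kinase rose, and Map2k3 (0.0526), Dnaja1 (0.0630) and Fn1 (0.0718) were not called. After adjustment, the methods' t-test called 2 genes higher and 2 lower over all genes and 0 in the 10 and in every list. Unadjusted, it called 1748 genes higher and 1201 lower over all genes. In that setting 1 of the 10 rose and 1 fell, 1 immediate early gene fell, 1 partner rose and 1 fell, and 4 kinases fell. The cause of these changes was not tested. Same-numbered arrays did not deviate together (correlation -0.06 across genes), and with the replicate number as a block 1539 genes rose and 972 fell, with 2 of the 10 rising and 2 falling. Among the named genes the block ended the calls of Klf4 (0.0532) and Dnaja1 (0.0563). Other pseudocounts, filters, quantile normalization, robust variance and averaged probe sets moved no count of the 10. Some ended calls of other named genes: with no filter Btg2 (0.0541), Klf4 (0.0584) and Dnaja1 (0.0559), with quantile normalization Btg2 (0.0563) and Fn1 (0.197, log2 difference -0.04), and with robust variance Mmp13 (0.163). Fos was left out by the filter at the median, and its low signal limits what its interval can show.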
